A study of Mus musculus with 2 samples.

Results

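Transcripts of 7 genes known from the cornified envelope and from squamous epithelial barriers were followed in single cells of an aged mouse bladder: Sprr1a, Sprr2a1, Sprr2a3, Ivl, Krtdap, Dmkn and Psca. They were taken by symbol from the 31054 features of the count matrices, and each symbol was found. The genes were chosen by their UMI counts in these same libraries, so the levels by cell class and the ratios between libraries are given as a description and no test is attached to them. The tissue was the bladder of 1 male mouse of 25 months with the genotype p16-CreERT2/R26-LSL-tdTomato. In such a mouse, a tamoxifen-activated Cre recombinase expressed from p16 (the cell-cycle inhibitor encoded by Cdkn2a) switches on the red protein tdTomato from the Rosa26 locus. Injections of tamoxifen were given on 5 days in a row and the bladder was taken 2 weeks later. Cells without the leukocyte antigen CD45 and without the dead-cell dye DAPI were sorted into a reporter-negative library (Tom-) and a reporter-positive library (Tom+). Both libraries carry the same alleles and the same tamoxifen treatment, and there is 1 library for each.

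In the skin, involucrin (Ivl) and the small proline-rich proteins (SPRR) are cross-linked beneath the membrane of the dying keratinocyte by transglutaminases, and loricrin is added to this scaffold to make the cornified envelope. Keratinocyte differentiation-associated protein (Krtdap), dermokine (Dmkn) and their neighbour suprabasin (Sbsn) are secreted proteins best known from the upper layers of stratified epithelia. Psca, prostate stem cell antigen, is a small membrane-anchored protein of the Ly6 family found in the lining of the bladder, stomach and prostate. The urothelium of the bladder does not cornify in health: its superficial umbrella cells are covered by plaques of uroplakins, above intermediate cells and basal cells that express keratins 5 and 15.

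The genes lie in 3 places of the mouse genome (GRCm38, GENCODE vM21). Sprr2a1 (chr3:92215799-92221911), Sprr2a3 (chr3:92285417-92291405), Sprr1a (chr3:92483952-92485895) and Ivl (chr3:92570902-92573735) belong to the epidermal differentiation complex of chromosome 3. Dmkn (chr7:30763756-30781063) and Krtdap (chr7:30787896-30791097) are adjacent on chromosome 7, 6832 bases apart, and Sbsn (chr7:30751471-30756134) lies 7621 bases before Dmkn with no coding gene between. Psca (chr15:74714839-74717069) stands alone. RefSeq promoter windows (GRCm38.p6) were found for 6 of the 7 genes. The binding sequence of AP-1, a factor family long tied to squamous genes, was searched as TGAGTCA and its reverse complement TGACTCA in the 250 bases before each start. It was present in 4 of these 6 genes (Sprr1a with 2 matches, Ivl, Krtdap and Dmkn), against 4.46% of 32851 mouse promoter windows of the same length. The members were counted by gene, with several windows for Dmkn, while the share is by window. Among 14 SPRR genes, Sprr1a included, 8 had a match. Sprr2d, Sprr2e, Sprr2i and Sprr2k were among these and had no UMI in any cell used below. A match was thus found in genes with and without transcripts here. Another string, the octamer ATTTGCAT, was also searched with its reverse complement. The octamer was present in 0 of the 6 genes, in 7 of the 14 SPRR genes and in 1.60% of the windows. A match is a string of letters and not a measured binding site, and the AP-1 motif was chosen after the windows had been read. The stretches from 200 to 21 bases before the start are shown because 4 genes that were expressed in 3 different cell classes here carry a match to this motif (Ivl on the opposite strand), while Sprr2a3 does not. They are chr3:92485902-92486081 (Sprr1a, minus strand), chr3:92573756-92573935 (Ivl, minus strand), chr7:30787705-30787884 (Krtdap, plus strand), chr7:30763556-30763735 (Dmkn, plus strand) and chr3:92285104-92285283 (Sprr2a3, plus strand), written 5′ to 3′ on the gene's strand with the AP-1 letters in capitals.
Sprr1a: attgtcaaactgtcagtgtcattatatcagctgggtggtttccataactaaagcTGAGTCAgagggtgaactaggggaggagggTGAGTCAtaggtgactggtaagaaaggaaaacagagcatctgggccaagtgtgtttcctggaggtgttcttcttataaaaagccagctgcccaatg
Ivl: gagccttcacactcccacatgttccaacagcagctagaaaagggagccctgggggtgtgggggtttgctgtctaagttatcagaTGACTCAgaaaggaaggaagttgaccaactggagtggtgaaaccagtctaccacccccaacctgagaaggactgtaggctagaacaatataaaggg
Krtdap: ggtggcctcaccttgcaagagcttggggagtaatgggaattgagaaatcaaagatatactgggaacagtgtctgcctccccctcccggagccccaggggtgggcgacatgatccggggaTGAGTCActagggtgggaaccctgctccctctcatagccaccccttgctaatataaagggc
Dmkn: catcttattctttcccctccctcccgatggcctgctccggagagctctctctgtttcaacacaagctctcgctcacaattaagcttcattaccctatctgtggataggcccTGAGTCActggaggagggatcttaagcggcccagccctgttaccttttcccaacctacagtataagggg
Sprr2a3: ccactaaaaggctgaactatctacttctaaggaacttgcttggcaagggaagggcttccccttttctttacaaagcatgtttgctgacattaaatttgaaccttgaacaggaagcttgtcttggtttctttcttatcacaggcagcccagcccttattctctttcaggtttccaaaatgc

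The Tom- library held 13551 barcodes and the Tom+ library 2783, with 9886 and 1881 cells used after filtering (median 12773 and 11579 UMIs). Cells were sorted into classes one by one from their summed marker UMIs, with none of the 7 genes among the markers. Umbrella urothelial-like cells numbered 417 and 117 (Tom- and Tom+), basal or intermediate urothelial-like cells 1576 and 421, mesothelial-like cells 759 and 140, fibroblast-like cells 5236 and 795, endothelial-like cells 647 and 171, and lymphatic endothelial-like cells 136 and 50. The umbrella class is the upper end of a range, since 25.8% of Tom- and 23.6% of Tom+ urothelial-like cells lay within 0.5 log2 units of its boundary with the basal class. Another 404 Tom- and 17 Tom+ cells were prostate or seminal vesicle-like by their markers and were kept out of these classes. A tdTomato UMI was found in 68.6% of umbrella, 68.8% of basal or intermediate, 14.1% of mesothelial-like and 19.0% of fibroblast-like Tom- cells with a barcode of their own, and in 95.1% to 98.9% of such Tom+ cells. The sorted populations are therefore named by their labels, and the part of reporter RNA in Tom- urothelial-like cells was not tested. The libraries share 966 cell barcodes, which account for 657 used Tom- cells and 346 used Tom+ cells, including 54 of the 140 Tom+ mesothelial-like cells. Levels are a gene's UMIs per 1000000 UMIs of a class (CPM) with exact Poisson 95% intervals. Each UMI marks the 3′ end of 1 captured transcript, so levels of different genes are compared without scaling to length. All intervals cover counting error alone, since nothing replicates a library.

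The 7 genes fell into 3 groups by the cells that held them. Sprr1a, Sprr2a1, Sprr2a3, Ivl and Psca were highest in urothelial-like cells, which held between 94.8% (Psca, Tom+) and 98.2% (Sprr2a3, Tom-) of each gene's UMIs in a library. Krtdap was a fibroblast transcript here: fibroblast-like cells held 97.5% (97.2 to 97.8) of its UMIs in Tom- and 98.7% (97.9 to 99.2) in Tom+. Dmkn was highest in mesothelial-like cells, the covering layer of the organ's outer surface, which held 63.7% and 63.0% of its UMIs. The description of the set as squamous barrier genes of the epithelium therefore did not hold for Krtdap and Dmkn in these cells. The number of genes highest in urothelial-like cells of both libraries was 5 as well with stricter cell filtering, with doublets kept, with clusters in place of the gate and without shared barcodes.

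**Figure D1:**
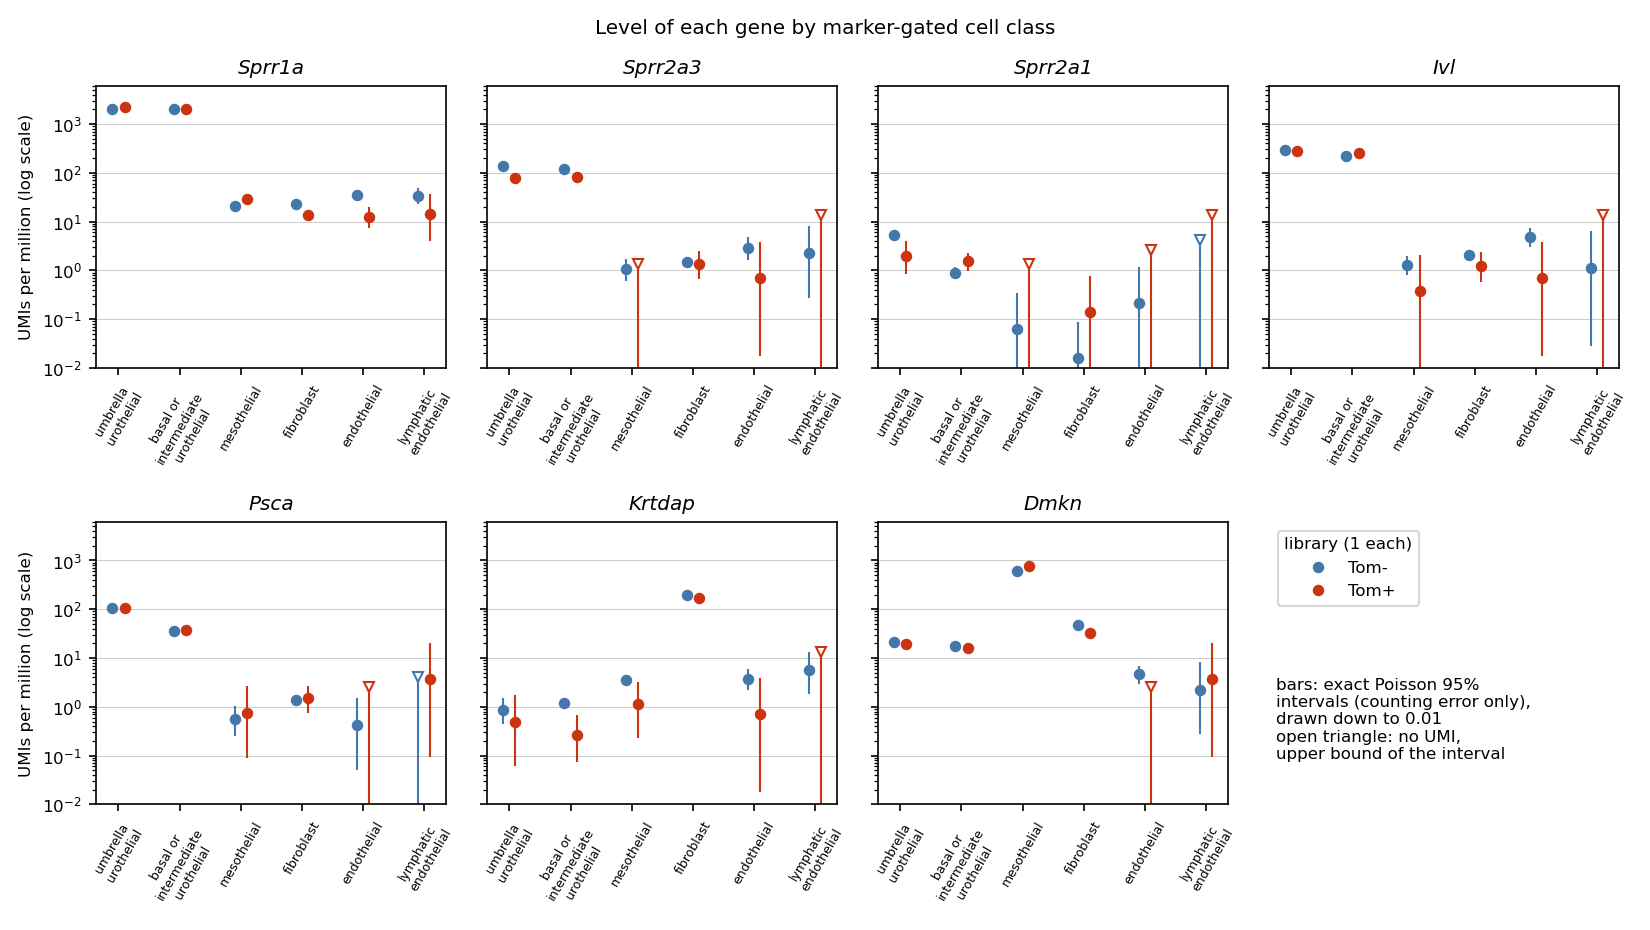
Levels in CPM (log scale) of each of the 7 genes in 6 cell classes, with Tom- in blue and Tom+ in red. Points are single libraries, lines are exact Poisson 95% intervals of counting error, and open triangles mark the upper bound where no UMI was found. Sprr1a, Sprr2a3, Sprr2a1, Ivl and Psca stand highest in the 2 urothelial classes, Krtdap in fibroblast-like cells and Dmkn in mesothelial-like cells.

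Sprr1a, which bridges other envelope proteins, was the most abundant of the 7. In umbrella urothelial-like cells Tom- cells held 2055 CPM (2031 to 2079) and Tom+ cells 2227 CPM (2181 to 2274). In basal or intermediate urothelial-like cells it was 2039 CPM (2027 to 2050.4) and 2009 CPM (1986 to 2032). It ranked between the 89th and the 100th most abundant gene in these sums, and it was not restricted to a few cells. Thinned to 2000 UMIs per cell, 88.5% (87.0 to 89.9) of Tom- and 88.8% (85.7 to 91.3) of Tom+ urothelial-like cells still held a Sprr1a UMI, against 96.7% and 98.3% unthinned. The cells that made up 50% of its summed level were 27.8% and 28.0% of the urothelial-like cells.

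Ivl, the scaffold on which the envelope is assembled, stood in umbrella urothelial-like cells at 296 CPM (287 to 305) for Tom-, against 279 CPM (263 to 296) for Tom+. In the basal or intermediate class it was 223 CPM (219 to 227) and 251 CPM (244 to 260). After thinning, 31.0% and 32.6% of urothelial-like cells held an Ivl UMI, and 18.8% and 19.0% of the cells made up 50% of its level. Unthinned, 84.0% and 87.5% of these cells held one, so Ivl was spread over most of the urothelium.

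Sprr2a3 was patchy. Umbrella urothelial-like cells held 139 CPM (133 to 146) in the Tom- library, against 77.6 CPM (69.2 to 86.7) in Tom+, with 119 CPM (117 to 122) and 80.9 CPM (76.4 to 85.6) in the basal or intermediate class. At least 1 UMI was present in 42.2% (Tom-) and 40.1% (Tom+) of urothelial-like cells, and after thinning in 11.5% and 11.2%. In Tom-, 50 of 1873 cells (2.67%) made up 50% of the summed per-cell level, and the highest cell carried 279 UMIs. In Tom+ it was 21 of 525 cells (4.00%), with at most 79 UMIs in a cell. The intervals of the thinned shares overlapped between the libraries, while those of the summed levels did not.

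Sprr2a1 was counted only 130 times in the used Tom- cells and 32 times in Tom+, with 5.36 CPM (4.20 to 6.73) and 1.98 CPM (0.856 to 3.91) in the umbrella class. These values are uncertain. The GENCODE model of its copy Sprr2a2 (chr3:92215920-92256724) runs over most of Sprr2a1, and the longest transcripts of Sprr2a1 and Sprr2a2 are 99.9% identical and share their last 1016 bases. Sprr2a3 is 98.9% identical to Sprr2a1 over 2880 aligned bases but differs near its end. How reads matching both copies were counted is not given in the sources used here. Of the Sprr2a1 UMIs in urothelial-like cells, 108 of 124 in Tom- and 22 of 31 in Tom+ lay in cells that also held a Sprr2a3 UMI.

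Psca was the member that marked the umbrella end of the urothelium. Umbrella urothelial-like cells held 105 CPM (99.7 to 111) in the Tom- library, against 108 CPM (97.7 to 118) in Tom+. In the basal or intermediate class it was 35.1 CPM (33.6 to 36.7) and 37.4 CPM (34.4 to 40.7). As for Sprr2a3, few cells carried most of it: 74 of 1873 Tom- and 21 of 525 Tom+ urothelial-like cells made up 50% of its level.

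**Figure D2:**
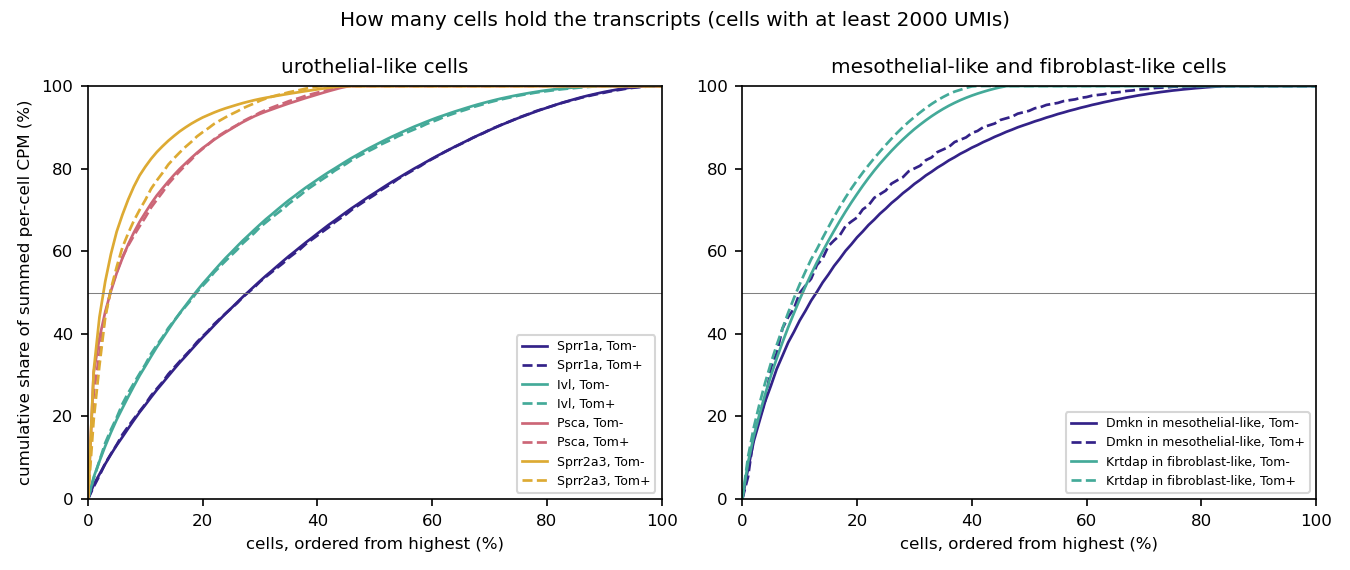
Cumulative share of the summed per-cell level (vertical axis, %) against the share of cells ordered from the highest (horizontal axis, %), for cells with at least 2000 UMIs, Tom- solid and Tom+ dashed. Of the 4 urothelial genes drawn (Sprr2a1, with few UMIs, is not), Sprr2a3 and Psca climb fastest and Sprr1a slowest, with 2.67% of Tom- cells making up 50% of Sprr2a3 and 27.8% making up 50% of Sprr1a.

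The 4 abundant urothelial genes did not share 1 course from the basal to the umbrella end. Urothelial-like cells with at least 5000 UMIs were placed in 7 bins by the log2 ratio of their umbrella to their basal marker UMIs. Psca went up at each step in Tom-, from 0.551 CPM (0.0667 to 1.99) in the most basal bin to 277 CPM (249 to 306) in the most umbrella-like one, and in Tom+ from 5.56 to 458 CPM (398 to 525). Sprr1a stayed within 1709.7 to 2700.1 CPM in Tom- and 1873 to 2616 CPM in Tom+ over all bins. Ivl in Tom- went from 102 CPM to 321 CPM (310 to 332) just past equal markers and stood at 206 CPM (182 to 232) at the umbrella end. In Tom+ it went from 101 CPM to 275 CPM by the third bin and then lay between 238 and 307 CPM.

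Sprr2a3 was highest in the middle of the range and low at both ends. In Tom- its level was 11.6, 61.0, 105, 159, 158, 103 and 47.2 CPM from the basal to the umbrella end, and in Tom+ 8.34, 17.5, 114, 76.5, 79.8, 94.0 and 44.2 CPM. The Tom+ values were below the Tom- values in 6 of the 7 bins, with intervals apart in the bins from -3 to -2, from -1 to 0 and from 0 to 1. In Tom+ the last 2 bins held 20 and 11 cells, and 174 Tom- and 25 Tom+ urothelial-like cells were too shallow to be placed.

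**Figure D3:**
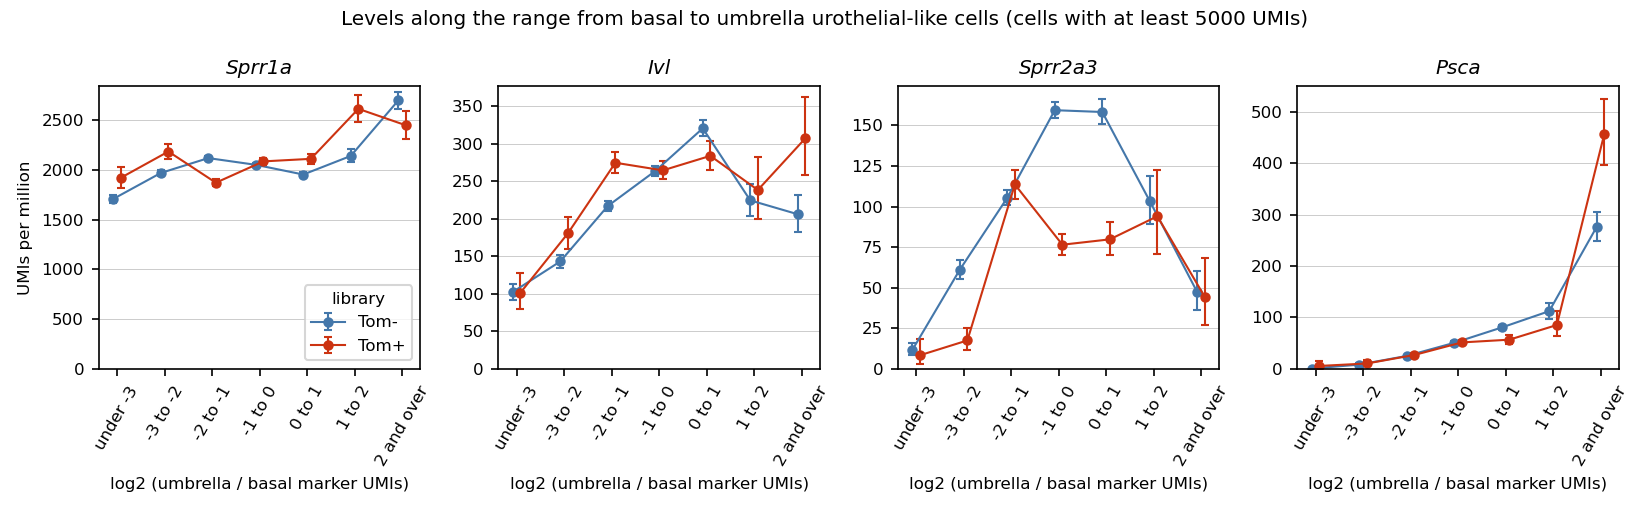
Levels in CPM of Sprr1a, Ivl, Sprr2a3 and Psca in 7 bins of urothelial-like cells ordered by the log2 ratio of umbrella to basal marker UMIs, Tom- in blue and Tom+ in red, with exact Poisson 95% intervals. Psca climbs towards the umbrella end (277 CPM in Tom-), Sprr2a3 peaks in the middle (159 CPM in Tom-) and Sprr1a is at least 1709.7 CPM throughout.

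In fibroblast-like and endothelial-like cells, Sprr1a, Sprr2a3 and Ivl stood at about the low share that other urothelial transcripts had there. Psca stood higher in fibroblast-like cells. Sprr1a in fibroblast-like cells was at 22.6 CPM (Tom-) and at 13.3 CPM (Tom+), which is 1.11% and 0.649% of the urothelial level. Urothelial keratins and uroplakins stood at like shares there: 1.12% and 0.575% for Krt15, 1.09% and 0.588% for Krt5, and 1.03% and 0.779% for Upk1a. Sprr2a3 was at 1.20% and 1.71%, Ivl at 0.885% and 0.481%, and Psca at 2.82% and 2.89%. The Psca values rest on 87 and 11 UMIs. They were above the 1.53% and 1.98% of Upk2 and the 2.19% and 2.01% of Upk1b. Upk1b was also abundant in mesothelial-like cells (423 and 437 CPM). Endothelial-like cells gave 1.68% and 0.611% for Sprr1a, beside 1.89% and 0.673% for Krt15. The unthinned share of fibroblast-like cells with a Sprr1a UMI was 22.4% and 11.6%, at median depths of 11815 and 7984 UMIs. The keratins and uroplakins named here served as markers for the classes, while the members did not. Whether the UMIs of the members came from RNA of other cells was not tested.

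In the urothelium, Krtdap and Dmkn were set beside their levels in other classes in the same way. Krtdap in urothelial-like cells was at 1.16 CPM (Tom-) and at 0.315 CPM (Tom+), 0.581% and 0.184% of its fibroblast level. The fibroblast genes Dcn and Col1a1 stood at 0.806% and 0.695% in Tom- and at 0.182% and 0.120% in Tom+. Krtdap was thus below the share of both genes in Tom-. In Tom+, where it rests on 6 UMIs, it was about level with Dcn and above Col1a1. Dcn and Col1a1 are fibroblast markers, and cells were classed as urothelial-like only with under 50 fibroblast marker UMIs per 10000. Krtdap had no such limit, so its share and theirs are not fully comparable. Dmkn, with 18.5 CPM (17.5 to 19.6) for Tom-, against 16.7 CPM (14.9 to 18.6) for Tom+, stood at 39.2% and 50.6% of its fibroblast level, at 3.03% and 2.15% of its mesothelial level, and above its level of 4.61 CPM (2.89 to 6.99) in Tom- endothelial-like cells, where Dcn was higher than in the urothelium (555 against 166 CPM). In Tom+ no Dmkn UMI was found in 171 endothelial-like cells, which allows up to 2.09 CPM. A Dmkn UMI was held by 40.6% and 36.2% of urothelial-like cells unthinned (median 37078 and 35776 UMIs) and by 3.42% and 3.81% after thinning. No mesothelial gene is set beside Dmkn here. Whether the Krtdap or Dmkn UMIs of urothelial-like cells came from RNA of other cells was not tested.

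Mesothelial-like cells held 611 CPM (599 to 623) of Dmkn in the Tom- library, against 777 CPM (744 to 811) in Tom+. A Dmkn UMI was found in 83.8% and 77.1% of these cells, and after thinning in 42.1% (38.5 to 45.7) and 44.5% (36.0 to 53.3). Sbsn, its neighbour on the chromosome, stood at 128 and 133 CPM in the same cells, and Krtdap at 3.55 and 1.12 CPM. The Krtdap values rest on 57 and 3 UMIs. They compare with 3.78 and 0.698 CPM in endothelial-like cells and are over 3 times those of urothelial-like cells, with intervals that overlap the endothelial ones (2.24 to 5.97 against 2.69 to 4.60 in Tom-). Of the 3 adjacent genes, Dmkn and Sbsn were thus the abundant ones in mesothelial-like cells.

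Fibroblast-like cells held 199 CPM (195 to 202) of Krtdap in the Tom- library, against 171 CPM (162 to 181) in Tom+. A UMI was found in 45.2% and 36.0% of cells, and after thinning in 25.4% (24.2 to 26.6) and 21.3% (18.3 to 24.5). In urothelial-like cells, which should lack it, the thinned shares were 0.427% (0.185 to 0.840) and 0 of 525 cells, which allows up to 0.571%. The fibroblast-like cells were clustered again with the 7 genes and tdTomato left out. Krtdap was uneven among the 12 sub-clusters. In Tom- it stood at 434 CPM (420.3 to 448) in the sub-cluster led by Bglap2 and Crhbp, 343 CPM (331 to 356) in the one led by Olfml2a and Efhd1, 322 CPM (301 to 344) in the one led by Akr1c18 and Edn1, 305 CPM (294 to 317) in the one led by Ednrb and Cyp2e1, and 220.2 CPM (210.4 to 230.3) in the one led by Dner and Stc2. It was 13.3 CPM (11.4 to 15.5) in the 912 cells led by Unc13c and Actg2, 20.6 CPM in those led by Ren1 and Pnoc, and 2.06 CPM in those led by Tlr12 and Ntng1. Thinned shares of cells with a Krtdap UMI followed the same split, at 49.1% in the highest of these and 1.97% in the Unc13c and Actg2 group.

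Dmkn was lower in fibroblast-like cells, with 47.3 CPM (45.6 to 49.0) for Tom-, against 33.0 CPM (29.0 to 37.4) for Tom+. It was highest in the small sub-cluster led by Akr1c18 and Edn1 (160 Tom- cells), at 215 CPM (198 to 233), where Sbsn was also highest at 291 CPM. In the sub-clusters led by Olfml2a and by Bglap2 it was 91.4 and 84.1 CPM. The sub-cluster led by Saa3 and Cd74 was the exception to the order of Krtdap, with Dmkn at 73.3 CPM (61.7 to 86.4) and Krtdap at 9.35 CPM (5.54 to 14.8) in its 93 Tom- cells.

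Within fibroblast-like cells, transcripts of Dmkn and of Sbsn were found more often in cells that held Krtdap. In Tom-, 88.6% of Dmkn UMIs and 83.9% of Sbsn UMIs lay in cells with a Krtdap UMI, and in Tom+ 94.2% and 81.9%. After thinning, a Dmkn UMI was found in 14.7% (12.8 to 16.8) of Tom- cells with Krtdap and in 3.53% (2.97 to 4.17) of cells without it. In Tom+ these shares were 12.2% (7.37 to 18.5) and 2.19% (1.14 to 3.79). For Sbsn they were 27.1% and 8.75% in Tom-, and 18.9% and 9.12% in Tom+. Sbsn with and without Dmkn was at 31.8% (26.8 to 37.2) and 12.1% in Tom-, but at 10.0% (3 of 30 cells, 2.11 to 26.5) and 11.3% in Tom+. The cells compared share a library and a sub-cluster structure, so the shares are descriptions.

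**Figure D4:**
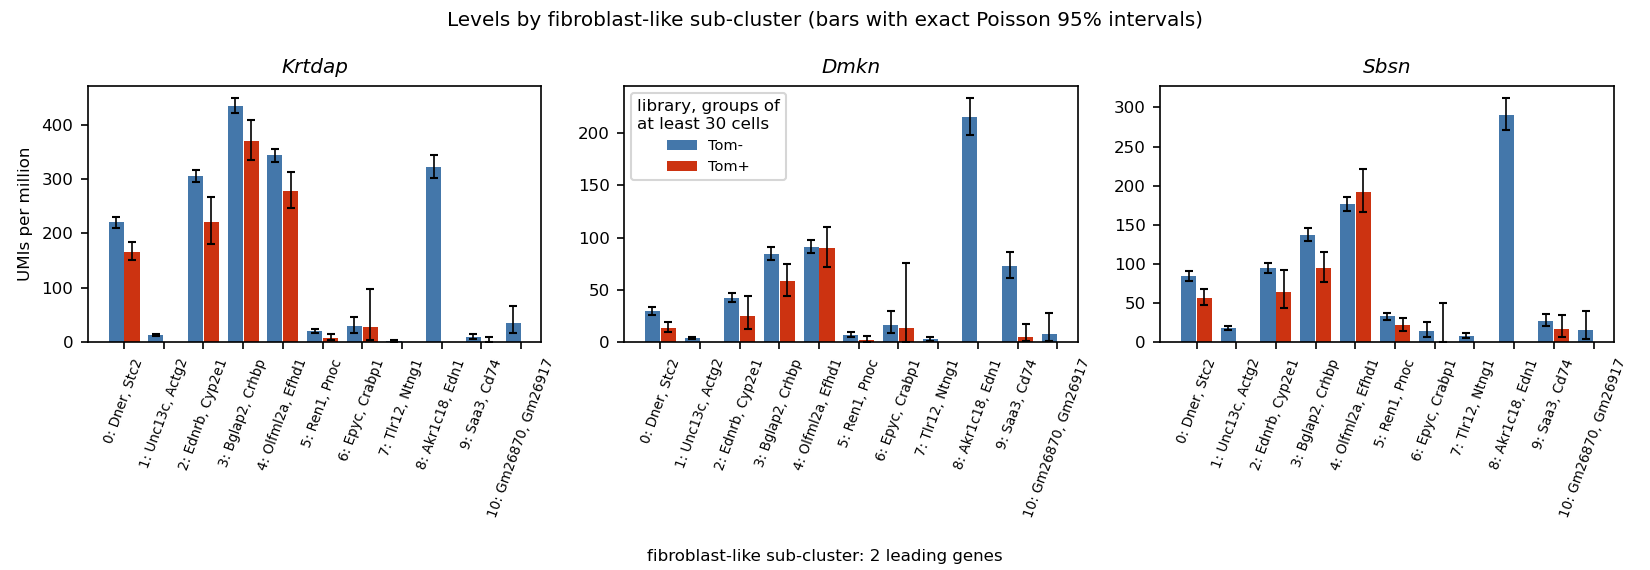
Levels in CPM of Krtdap, Dmkn and Sbsn in fibroblast-like sub-clusters named by their 2 leading genes, Tom- in blue and Tom+ in red, with exact Poisson 95% intervals; bars are drawn for groups of at least 30 cells. Krtdap is highest in the Bglap2 and Crhbp group (434 CPM in Tom-), and Dmkn and Sbsn are highest in the Akr1c18 and Edn1 group (215 and 291 CPM).

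Beside these genes, most of the cornified envelope was missing from the urothelium. The lists of related genes used here were drawn up with earlier results of these data known. Of 14 SPRR genes in the feature table, 7 had no UMI in any used cell and 2 (Sprr1a and Sprr2a3) reached 10 CPM in urothelial-like cells. Of 33 other genes of the epidermal differentiation complex, 22 had no UMI, among them Flg (filaggrin), and 1 (Ivl) reached 10 CPM. Loricrin (Lor) was at 0.240 and 0.158 CPM in Tom- and Tom+. Of 12 cross-linking and scaffold genes, 4 reached 10 CPM. These were Anxa1 (158 and 155 CPM), Ppl (periplakin, 53.3 and 51.7 CPM), Evpl (envoplakin, 38.8 and 35.3 CPM) and Tgm2 (19.5 and 14.5 CPM). Tgm1, the main transglutaminase of the envelope in skin, was at 0.225 and 0.210 CPM. Among 10 squamous keratins, Krt4 (246 and 226 CPM) and Krt10 (34.9 and 35.5 CPM) reached 10 CPM, Krt1 stood at 9.26 and 7.93 CPM, and Krt13 and Krt14 were under 3 CPM. Of 8 skin keratinocyte markers, 4 were at 0 in each urothelial class and library and the list summed to 44.1 to 47.3 CPM.

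The genes whose pattern was most like each member's were sought over 15 sums of a class in a library, among 5976 genes, by Pearson's r of log2 (CPM + 1). Ivl was closest to Ugt2b34 (r = 0.997), and Sprr1a to Gpx2, Foxq1 and Igfbp2 (r = 0.988 to 0.989). Sprr2a3 was closest to Urah (0.988) and to the uroplakin Upk2 (0.986), Psca to Gstm4 (0.968) and the umbrella keratin Krt20 (0.957), and Sprr2a1 to Gm32846 (0.920) and Krt20 (0.918). Krtdap was closest to Pex5l (0.986), a leading gene of its highest fibroblast sub-cluster, and Dmkn to Rpp25 (0.959). The sums share libraries and classes, so these values describe likeness over few cell types.

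The question put by the sort is whether cells with the p16 lineage mark differ from cells without it. A gene was measured in a class if it reached 10 CPM in either library and 20 UMIs in the sum of both, and called when Tom+ and Tom- were at least 1.5 times apart after adding 1 CPM. In umbrella urothelial-like cells, 1 of 5 measured members was called, Sprr2a3, lower in Tom+, where 1.16% of 7581 measured genes were called lower, 0.343% higher and 1.5% in either direction. In basal or intermediate urothelial-like cells 0 of 5 were called, beside 0.431% of 7652 genes (0.392% lower and 0.0392% higher). In mesothelial-like cells 0 of 2 were called, beside 2.5% of 8829 genes (1.69% lower and 0.815% higher). In fibroblast-like cells 1 of 3 was called (0 with equal weight per cell), Sprr1a, lower in Tom+, beside 2.5% of 8999 genes called lower, 1.86% called higher and 4.36% called in either direction. With 1 library for each sorted population there is no test, and a count of 0 carries no p-value.

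The ratio of Tom+ to Tom- for Sprr2a3 was 0.557 (0.493 to 0.629) in umbrella and 0.678 (0.637 to 0.721) in basal or intermediate urothelial-like cells. Leaving out barcodes found in both libraries gave 0.665 (0.587 to 0.752) and 0.646 (0.601 to 0.693), which ended the call in the first class and made one in the second. Leaving out the 5 highest cells of each library gave 0.398 and 0.603. The direction was the same in both classes each time. With clusters in place of the gate, the umbrella class was smaller (100 Tom- and 37 Tom+ cells). Sprr2a3 then stood there at 7.82 CPM (25 UMIs) and 1.83 CPM (2 UMIs) and was no longer measured, while Psca was called higher in Tom+ (103 and 179 CPM, ratio 1.74, 1.45 to 2.08) and Dmkn lower (40.7 and 26.5 CPM, ratio 0.652, 0.420 to 0.981). In the gated classes the other urothelial members measured were not called: Sprr1a was at 1.08 (1.06 to 1.11) and 0.985 (0.973 to 0.998), and Ivl at 0.945 (0.884 to 1.01) and 1.13 (1.09 to 1.17) in the umbrella and the basal or intermediate class. Psca was at 1.02 (0.918 to 1.14) and 1.07 (0.969 to 1.17). The umbrella value for Psca was 0.668 (0.579 to 0.768) without the 5 highest cells of each library and 0.850 (0.746 to 0.966) without shared barcodes, so its direction depended on the cells taken.

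In mesothelial-like cells the Dmkn ratio was 1.27 (1.21 to 1.33), and its direction turned with the shared barcodes. The 54 Tom+ cells whose barcode was also in Tom- had a median of 26827 UMIs there, against 628 UMIs for the same barcodes in Tom-. They held Dmkn at 1047 CPM, and 94.4% of them had a tdTomato UMI. The other 86 Tom+ cells (median 13200 UMIs) held Dmkn at 416 CPM with tdTomato in 95.3%. Without shared barcodes the ratio was 0.681 (0.620 to 0.746), and without the 5 highest cells of each library it was 1.07 (1.01 to 1.13). Sprr1a in these cells, at 20.7 and 29.5 CPM (1.02% and 1.44% of its urothelial level), likewise went from 1.42 (1.10 to 1.82) to 0.464 (0.230 to 0.842).

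In fibroblast-like cells Krtdap stood at a ratio of 0.863 (0.813 to 0.915) and Dmkn at 0.698 (0.609 to 0.796). Without shared barcodes these were 0.913 (0.860 to 0.970) and 0.719 (0.624 to 0.825). The make-up of the class differed: the Dner and Stc2 sub-cluster made up 38.6% of the class in Tom+ against 18.4% in Tom-, and the Unc13c and Actg2 sub-cluster, where Krtdap was low, held 2.89% and 17.4%. Within sub-clusters Krtdap was lower in Tom+ in 7 of 7 with at least 30 cells of each library. Its ratio was 0.756 (0.677 to 0.843) in the Dner group, 0.723 (0.590 to 0.878) in the Ednrb group, 0.852 (0.766 to 0.947) in the Bglap2 group and 0.811 (0.715 to 0.916) in the Olfml2a group. In the groups with little Krtdap it was 0.371 (0.166 to 0.727) in the Ren1 group and 0.934 (0.105 to 3.87) in the Epyc group, and the 31 Tom+ cells of the Saa3 group held no Krtdap UMI (interval up to 1.07). Dmkn was likewise lower in 7 of 7, with ratios from 0.0665 (0.00798 to 0.245) in the Saa3 group to 0.982 (0.782 to 1.22) in the Olfml2a group. Tom+ held 2 Dmkn UMIs in the Saa3 group, 2 in the Ren1 group and 1 in the Epyc group. Sbsn was lower in 6 of 7. The sub-clusters come from the same 2 libraries and are not replicates, and no count over all genes is set beside them. In one of the 7, led by Epyc and Crabp1, all 58 Tom+ cells shared their barcode with Tom-. Their part in these ratios was not tested.

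The lower Sprr1a in Tom+ fibroblast-like cells (ratio 0.590, 0.475 to 0.725) stood beside basal urothelial markers that summed to 54.6 and 33.1 CPM and umbrella markers that summed to 29.4 and 23.2 CPM in the same Tom- and Tom+ cells. Single transcripts went both ways, with Krt15 at 32.7 and 16.1 CPM, Upk1b at 5.62 and 5.09 CPM and Upk2 at 1.89 and 2.47 CPM. With equal weight per cell the log2 ratio of Sprr1a went from -0.72 to -0.10, which ended the call. The part of these transcripts in the ratio was not tested. Sprr1a was also called lower in Tom+ in endothelial-like cells, at 34.4 and 12.6 CPM (ratio 0.365, 0.211 to 0.595), where 9.82% of 8923 genes were called lower and 2.35% higher, and in lymphatic endothelial-like cells, at 34.0 and 14.6 CPM (ratio 0.431, 0.110 to 1.22), where 14.7% of 6993 genes were called lower and 10.2% higher. In these 3 classes Sprr1a stood at under 2% of its urothelial level.

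**Figure D5:**
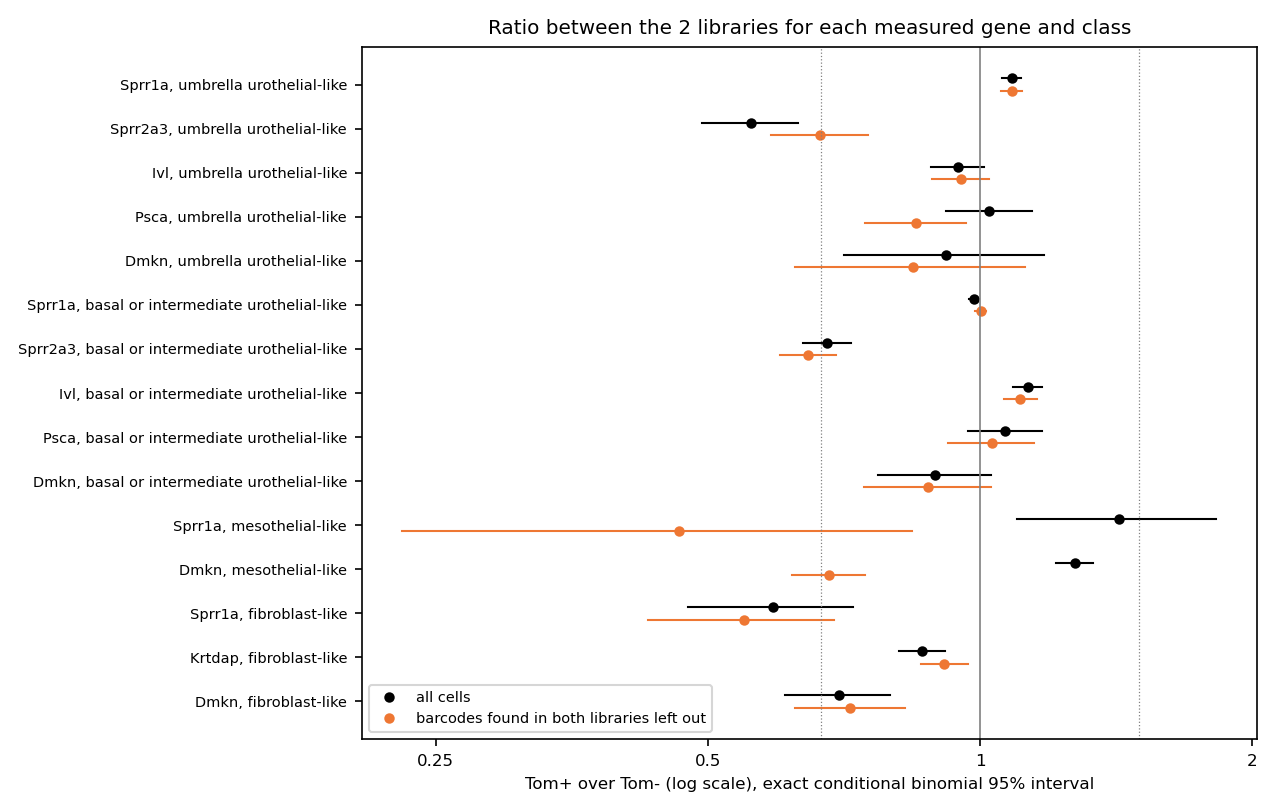
Ratio of Tom+ to Tom- (log scale) with exact conditional binomial 95% intervals for each member measured in 4 classes, for all cells (black) and without barcodes found in both libraries (orange); dotted lines mark 1.5 times apart. Sprr2a3 lies below 1 in both urothelial classes and Krtdap and Dmkn below 1 in fibroblast-like cells, while Dmkn in mesothelial-like cells goes from 1.27 to 0.681.

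In umbrella urothelial-like cells, Sprr2a3 was the one call among 62 measured genes of the 9 lists (1.61%), near the 1.5% called over all measured genes. The list medians ran from -0.37 (squamous keratins) to 0.05 (alarmins and S100 proteins), beside -0.02 over all measured genes. Krt4, a keratin of non-cornified squamous epithelium, was the lowest of the squamous keratins at 122 and 83.3 CPM, a ratio of 0.682 (0.605 to 0.767). The Ly6 family gene Ly6d, at 4417 and 4369 CPM, had a ratio of 0.989. In basal or intermediate urothelial-like cells 1 of 61 list genes was called (1.64%), beside 0.431% of all measured genes. It was Slpi, a secreted protease inhibitor, lower in Tom+ at 10.3 and 1.93 CPM, which reached 10 CPM in Tom- only. Slpi was at 4263 and 2658 CPM in mesothelial-like cells. In that class 5 of 44 list genes were called (11.4%), all lower in Tom+, beside 2.5% of all measured genes. The genes called there included Ly6d, at 40.9 and 11.2 CPM, which is far more abundant in urothelial-like cells. The part of such genes in that share was not tested. In fibroblast-like cells 9 of 38 measured list genes were called (23.7%), 7 lower and 2 higher in Tom+, where 4.36% of all measured genes were. Those lower in Tom+ included Sprr1a, Ly6d (52.3 and 24.5 CPM) and Slpi (24.9 and 3.16 CPM), each far more abundant in another class. Their part in the share was not tested, and the lists were drawn up with earlier results known. Other genes were called too. Among them were the transglutaminase Tgm2, lower in Tom+ at 168 and 87.9 CPM (ratio 0.522, 0.481 to 0.565), and Lcn2, an antibacterial lipocalin, higher in Tom+ at 2.54 and 12.0 CPM (ratio 4.72, 3.59 to 6.16). In fibroblast-like cells Lcn2 reached 10 CPM in Tom+ only and Slpi in Tom- only. The direction of each of these calls was therefore fixed by the filter, and both count among the 9.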

How the data were processed

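Cells of 1 bladder were profiled with 10x 3′ libraries, 1 for each sorted population. The matrices came from Cell Ranger 7.0.0 with the build mm10, per the submitters' processing notes. The authors deposited raw UMI counts per gene and barcode, with no normalization. Gene positions come from GENCODE vM21 (GRCm38), and all 7 gene identifiers matched it.

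A barcode passed with 1000 or more UMIs, 500 or more genes and a mitochondrial share below 15%. Scrublet, run per library (scanpy 1.11.5), marked 709 of 10595 Tom- and 12 of 1893 Tom+ barcodes as doublets, which were left out. Cells were classed from summed marker UMIs per 10000 UMIs, with thresholds chosen after the data were seen, and 535 Tom- and 168 Tom+ cells met none. Counts were summed over a class and divided by its total. Shares of cells were also taken after thinning each cell to 2000 UMIs, leaving out shallower cells (154 Tom- and 99 Tom+ fibroblast-like cells). Intervals are 95% exact Poisson, Clopper-Pearson and conditional binomial, and cover counting error alone. Depth was 197232860 UMIs in Tom- and 34455896 in Tom+. Where no UMI was found, 3 counts set the limit.

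With 1 library per population there was no test and no p-value. The scripts were tested on simulated data. The members and lists were chosen with earlier results of these data known. Named besides the members were, per list and class, the measured genes with the highest and lowest ratio and the 2 most abundant, and per member the 3 genes most like it; other genes named for a level were chosen after their values were seen. Alternatives were stricter cells, doublets kept, clusters, shared barcodes left out, equal weight per cell, removal of 5% of the library profile, TMM scaling (edgeR 4.0.16), other pseudocounts and filters, and thinned sums. Fibroblast-like cells were added as a compared class after the data were seen.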

Additional observations from a re-analysis of the deposited data

Results flagged for a closer look

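The ratio of Tom+ to Tom- for Sprr1a lay on both sides of 1 in different classes: 1.08 in umbrella urothelial-like and 1.42 in mesothelial-like cells, against 0.985 in basal or intermediate urothelial-like and 0.590 in fibroblast-like cells. For Dmkn it was 1.27 in mesothelial-like and 0.698 in fibroblast-like cells. With 1 library per population the difference between classes was not tested. Without shared barcodes both mesothelial-like values were below 1, at 0.464 for Sprr1a and 0.681 for Dmkn, and Sprr1a in basal or intermediate cells was just above 1.

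Transcripts of the members were also found in the 3846 barcodes that failed the cell filter, which no comparison used: 1246 UMIs of Sprr1a, 236 of Dmkn, 199 of Ivl, 177 of Psca, 159 of Krtdap and 93 of Sprr2a3. No Sprr2a1 UMI was found there.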

How the results depend on the processing

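Of 146 alternative values for 15 pairs of a member and a class, 119 lay within the interval of the reported ratio and 27 outside, 16 changed sign, and 0 turned a called ratio the other way. The largest moves were in mesothelial-like cells without shared barcodes, where log2 ratios went from 0.35 to -0.55 (Dmkn) and from 0.49 to -1.03 (Sprr1a). In umbrella urothelial-like cells, 1 member called (Sprr2a3) became 2 others with clusters (Psca, log2 ratio 0.79, and Dmkn, -0.60), 2 with no filter on low values and 0 without shared barcodes, and the count over the lists went from 1 to 4 with doublets kept, 12 with clusters and 2 without shared barcodes. In basal or intermediate urothelial-like cells, 0 members called became 1 with clusters, 1 without shared barcodes and 1 with no filter, and the lists went from 1 to 2 with clusters, 2 without shared barcodes and 0 with a filter of 50 CPM. In mesothelial-like cells, 0 members became 1 without shared barcodes, 3 with no filter and 1 with thinned sums, and the lists went from 5 to 9 without shared barcodes, 3 with a pseudocount of 5 CPM and 2 with a filter of 50 CPM. In fibroblast-like cells, whose alternatives were chosen after seeing the data, 1 member (Sprr1a) became 0 with equal weight per cell and 2 with thinned sums, and the lists went from 9 to 3 with a filter of 50 CPM. Under the main settings 62, 61, 44 and 38 list genes were measured in these classes, in the order given. The share called over all measured genes under each alternative is not given here. The changed counts are therefore not read as results about the members or lists. The cause was not tested, except that a stricter filter leaves fewer genes. No paired analysis was possible because each population has 1 library. Sprr2a1 is limited by depth, with 130 and 32 UMIs.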
